A study of Mus musculus with 6 samples.

Results

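The genes of JAK2-STAT5 signalling and its feedback were examined in the liver of GHRH-KO mice and control littermates. The group was set by name and comprised Jak2, Stat5a, Stat5b, Stat3, Socs1, Socs2, Socs3, Cish, Bcl6 and Cux2, that is, 10 of the 18193 genes on the array that have a probe set assigned to a single gene. Every such probe set of these genes was read, which gave 26 of the 45101 on the array, and the probe set with the highest mean over the 6 arrays stood for the gene. None of the 10 transcripts passed the test between genotypes. Bcl6 came nearest, at 2.60 times lower in GHRH-KO liver with an adjusted p of 0.0603 in limma.

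GHRH-KO mice lack Ghrh throughout the body, the gene of the hypothalamic hormone that drives release of growth hormone (GH) from the pituitary. Livers came from 3 GHRH-KO males and 3 wild-type male littermates, all of mixed C57BL6 and 129SV descent and all fasted for 6 to 8 h before the liver was taken. The methods give an age of 10 months for both genotypes, and a figure of the study is labelled with another age. Each array holds the RNA of a separate animal. GHRH-KO replicates are numbered 4, 5 and 6 and control replicates 1, 2 and 3, and values follow these numbers. All levels are RMA values (robust multichip average) on the log2 scale, and differences are GHRH-KO minus control on the same scale. A level can be compared between arrays for the same probe set but not between probe sets.

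GH binds its receptor on the hepatocyte and activates the bound kinase JAK2, which phosphorylates the transcription factor STAT5. Phosphorylated STAT5 dimers enter the nucleus and bind DNA at the element TTCNNNGAA, and male rodents are known for GH pulses that each activate STAT5 in liver. Proteins of the SOCS family, CIS among them, are transcribed in response and damp the receptor, and the repressors BCL6 and CUX2 act on STAT5-responsive genes of mouse liver. Much of this control is phosphorylation of proteins, which arrays of RNA do not measure.

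The letters TTCNNNGAA were sought in RefSeq promoter windows (GRCm38.p6), each of 300 bases, 250 before and 50 after an annotated transcription start. Because the letters read the same on both strands, a single search covers both. Of 13 windows of 9 members, 4 windows of 3 members held the element. Socs2 had no window in the table. At least 1 copy stood in 8.3% of all 32851 windows, at least 2 copies in 0.457% and at least 3 copies in 0.0335%. The windows of Jak2, Stat5a, Stat5b, Stat3, Socs1 and Cux2 held none. The form of the element with 4 bases between its arms, found in 6.95% of all windows, was in 0 member windows. The 4 windows with a copy are shown because they belong to the member that differed most between genotypes and to 2 feedback genes known as targets of STAT proteins. Each is written 5′ to 3′ on the strand of the gene with the copies in capitals.
Cish, chr9:107296409-107296708, plus strand: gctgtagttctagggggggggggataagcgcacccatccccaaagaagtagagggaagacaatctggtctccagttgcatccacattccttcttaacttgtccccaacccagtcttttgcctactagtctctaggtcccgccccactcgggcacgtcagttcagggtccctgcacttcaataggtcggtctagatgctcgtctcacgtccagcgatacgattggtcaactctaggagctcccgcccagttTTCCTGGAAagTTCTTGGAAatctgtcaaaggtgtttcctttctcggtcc
Socs3, chr11:117969317-117969616, minus strand: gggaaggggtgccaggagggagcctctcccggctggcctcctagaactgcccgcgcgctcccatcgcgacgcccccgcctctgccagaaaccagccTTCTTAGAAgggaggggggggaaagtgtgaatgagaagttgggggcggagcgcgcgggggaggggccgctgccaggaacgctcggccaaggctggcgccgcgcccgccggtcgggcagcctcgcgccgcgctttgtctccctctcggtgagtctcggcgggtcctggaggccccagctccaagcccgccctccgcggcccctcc
Bcl6, upstream start, chr16:23988803-23989102, minus strand: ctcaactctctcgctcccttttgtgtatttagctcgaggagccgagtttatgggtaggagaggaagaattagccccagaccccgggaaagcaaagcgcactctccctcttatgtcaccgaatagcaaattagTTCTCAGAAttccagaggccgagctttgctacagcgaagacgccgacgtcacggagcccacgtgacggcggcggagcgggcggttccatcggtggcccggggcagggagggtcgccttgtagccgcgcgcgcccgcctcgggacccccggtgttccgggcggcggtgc
Bcl6, downstream start, chr16:23981234-23981533, minus strand: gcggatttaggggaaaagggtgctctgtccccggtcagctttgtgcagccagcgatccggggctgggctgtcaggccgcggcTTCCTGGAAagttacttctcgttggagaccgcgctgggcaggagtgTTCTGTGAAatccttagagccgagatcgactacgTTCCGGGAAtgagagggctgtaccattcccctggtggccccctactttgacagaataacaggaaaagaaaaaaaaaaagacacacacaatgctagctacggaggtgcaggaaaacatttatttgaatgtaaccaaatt
In Cish the copies TTCCTGGAA and TTCTTGGAA begin at bases 251 and 262 of the window, at and just past the annotated start. The single copies in Socs3 and at the upstream Bcl6 start begin at bases 97 and 133. At the downstream Bcl6 start the 3 copies begin at bases 83, 129 and 163, so that this window belongs to the 0.0335% with at least 3. A match of letters is a description of the window, and binding was not measured.

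Ghrh itself read between 4.40 and 4.57 in GHRH-KO livers and between 4.41 and 4.75 in control livers, at background, and so gives no check of the genotypes in liver. The highest of these values, 4.75, served as a mark of background for the other probe sets. Array medians lay between 4.95 and 4.99. Deviations were taken from each probe set's median over all arrays of both genotypes, so they include any difference between genotypes. Their interquartile range was widest in GHRH-KO replicate 5 (0.231) and control replicate 2 (0.232). It was nearly as wide in control replicate 1 (0.219) and ran from 0.157 to 0.163 elsewhere. Of 7 hepatocyte markers tested none was called, and their summed linear level was 107722 to 110078 in GHRH-KO livers and 100261 to 105983 in control livers. In whole liver, fewer cells of a type and less RNA per cell cannot be told apart.

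Of the 10 members, 9 had a gene value among the probe sets tested, and Socs1 lay below the intensity filter. A gene was called at an FDR under 0.05 and a fold change above 1.5 or below 0.67, with p from limma after Benjamini-Hochberg adjustment across every tested probe set. By this rule 0 of the 9 members were called, against 0.786% of 12469 genes called higher and 0.97% called lower in GHRH-KO livers. An unadjusted p under 0.05 was seen for 2 members, Stat5b and Bcl6. All GHRH-KO values lay above all control values for 2 members, Jak2 and Stat5b, and below them for 1, Bcl6. Among all genes the same was true of 12.7% in the higher and 15.7% in the lower direction, so that these counts were near the background. The median difference of the 9 members was -0.023 and that of all genes 0.0033.

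**Figure D1:**
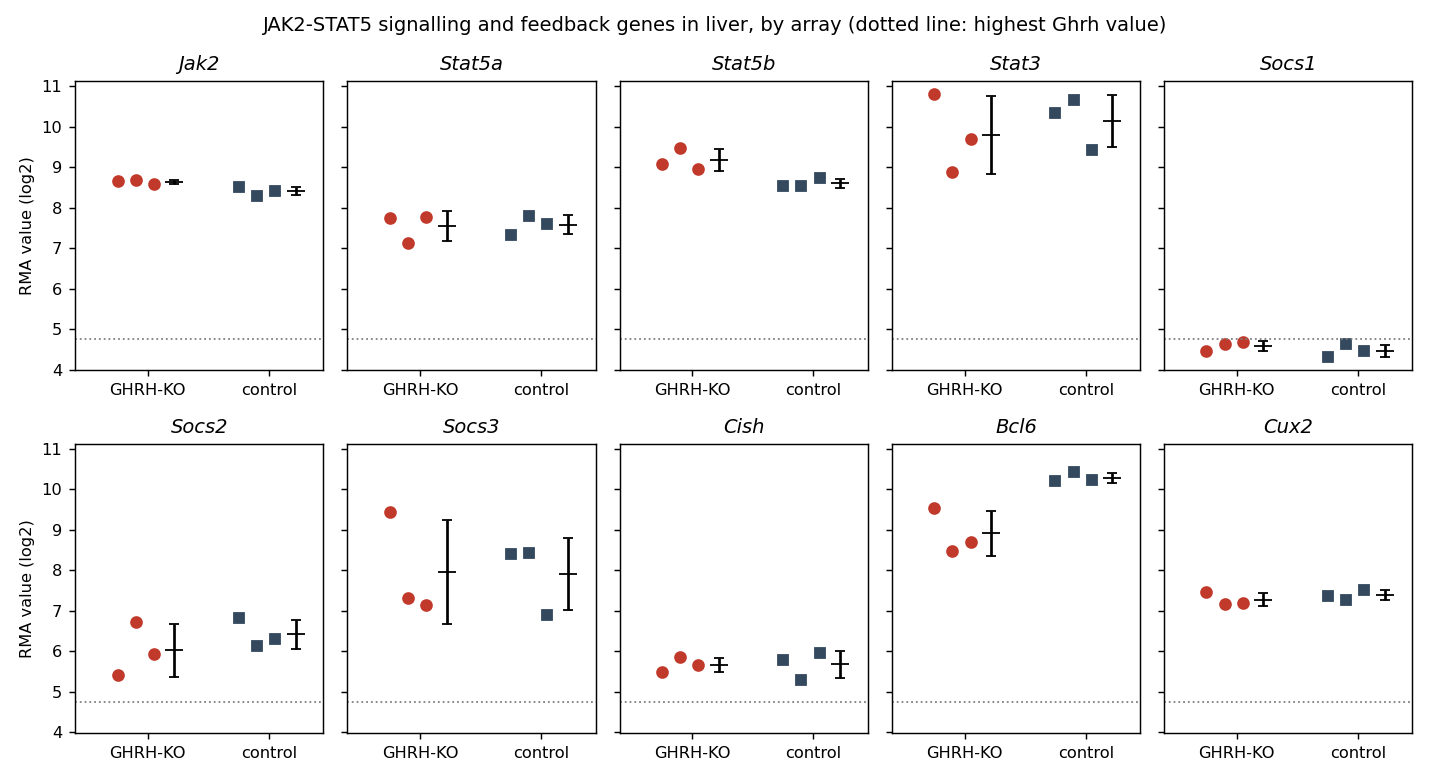
RMA values (log2, y axis) of the gene value probe set of each member in the 3 GHRH-KO livers (circles) and the 3 control livers (squares), with mean and SD beside them. The groups lie apart for Jak2, Stat5b and Bcl6 and overlap for the other members, and Socs1 stays below the dotted line at 4.75, the highest Ghrh value.

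Jak2 encodes the kinase that the GH receptor carries. Its gene value (1421066_at) was 8.65, 8.68 and 8.57 in GHRH-KO livers and 8.50, 8.30 and 8.42 in control livers. Each GHRH-KO value was above each control value, but the gap was narrow. The difference was 0.23 (95% interval -0.034 to 0.49, adjusted p = 0.330 in limma). The other Jak2 probe set, 1421065_at, read 6.63, 6.40 and 6.30 in GHRH-KO livers and 6.21, 5.93 and 6.27 in control livers, a difference of 0.30 (-0.037 to 0.65, adjusted p = 0.320), and again did not overlap. Jak2 also had a small spread, since the SD within GHRH-KO livers was at percentile 11.4 of all genes tested and that within control livers at percentile 27.0.

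The paralogues Stat5a and Stat5b encode the transducers of the GH signal, and Stat5b is the main form in liver. Stat5b (1422103_a_at) was 9.08, 9.48 and 8.95 in GHRH-KO livers and 8.53, 8.54 and 8.72 in control livers. The groups did not overlap, and GHRH-KO replicate 5 was the highest. This was a difference of 0.57, or 1.49-fold (95% interval 1.14 to 1.94), with an unadjusted p of 0.0092 and an adjusted p of 0.143 in limma. A further Stat5b probe set, 1422102_a_at, did not share this pattern. It read 5.85, 6.42 and 6.26 in GHRH-KO livers and 6.00, 6.20 and 6.14 in control livers, a difference of 0.064 (adjusted p = 0.868). Stat5a (1421469_a_at) was 7.75, 7.13 and 7.76 in GHRH-KO livers and 7.32, 7.79 and 7.60 in control livers. These groups overlapped, with GHRH-KO replicate 5 the lowest of the 6 arrays, and the difference was -0.023 (-0.52 to 0.47, adjusted p = 0.966). The remaining Stat5a probe set was at background in both genotypes.

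STAT3 is the transducer of interleukin-6 and related cytokines and can also be activated by GH. Its gene value (Stat3, 1426587_a_at) was 10.80, 8.88 and 9.70 in GHRH-KO livers and 10.33, 10.65 and 9.43 in control livers. The highest and the lowest of the 6 arrays were both GHRH-KO, and the difference of -0.34 had an interval of -1.54 to 0.85 (adjusted p = 0.748 in limma). On 1460700_at, Stat3 read 10.62, 9.77 and 9.58 in GHRH-KO livers and 10.04, 10.30 and 9.46 in control livers, a difference of 0.054 (adjusted p = 0.949). Values of the same order came from 1459961_a_at, at 7.82, 6.46 and 6.32 in GHRH-KO livers and 6.82, 7.48 and 6.29 in control livers, a difference of 0.0072 (adjusted p = 0.995). On these 3 probe sets GHRH-KO replicate 4 was the highest array, followed by control replicates 2 and 1. The dimmest probe set, 1424272_at, ran from 4.98 to 5.22 in GHRH-KO livers and from 5.07 to 5.43 in control livers.

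Socs3 encodes the inhibitor that damps JAK kinases at the interleukin-6 family receptors and is a known target of STAT3. Its gene value (1455899_x_at, a class of probe set that may also bind other transcripts) was 9.44, 7.32 and 7.13 in GHRH-KO livers and 8.40, 8.43 and 6.89 in control livers. The groups overlapped, with 1 high GHRH-KO array and 1 low control array, and the difference was 0.055 with an interval of -1.54 to 1.65 (adjusted p = 0.975 in limma). The probe set 1416576_at gave 7.98, 5.93 and 6.25 in GHRH-KO livers and 7.02, 7.11 and 6.22 in control livers, with a difference of -0.065 (adjusted p = 0.963). The remaining one, 1456212_x_at, gave 8.04, 5.73 and 5.74 in GHRH-KO livers and 6.54, 6.62 and 5.45 in control livers, with a difference of 0.30 (adjusted p = 0.834). All 3 Socs3 probe sets had GHRH-KO replicate 4 as the highest array and control replicates 2 and 1 next, as the 3 brighter Stat3 probe sets did. The SD of Socs3 was at percentile 99.6 of all genes tested within GHRH-KO livers and 98.9 within control livers, and that of Stat3 at 99.0 within GHRH-KO livers and 97.4 within control livers.

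**Figure D2:**
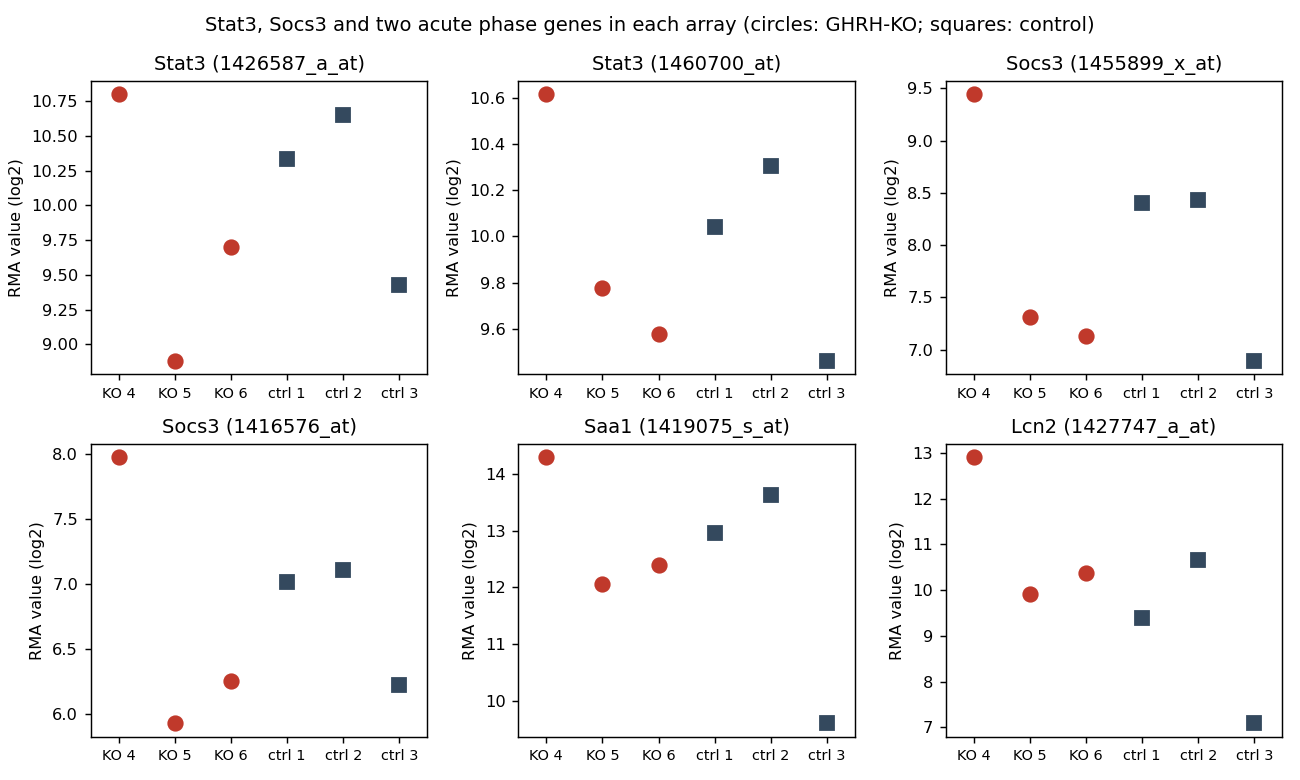
RMA values (log2, y axis, a separate range in each panel that does not start at 0) of Stat3, Socs3, Saa1 and Lcn2 in each array, with GHRH-KO replicates 4 to 6 as circles and control replicates 1 to 3 as squares. GHRH-KO replicate 4 is the highest array in every panel, and control replicate 3 is below control replicates 1 and 2 in every panel.

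Acute phase genes, which hepatocytes transcribe in response to interleukin-6 through STAT3, were listed beside Stat3 and Socs3. Of 18 listed genes 17 were tested, none was called in either direction, and the median difference was 0.15. The mean log2 level of the list was 11.86, 10.73 and 10.87 in GHRH-KO livers and 10.89, 11.02 and 9.98 in control livers, so GHRH-KO replicate 4 stood highest and control replicate 3 lowest. Of the genes chosen as examples after their values were seen, Saa1, a serum amyloid A gene, was 14.29, 12.06 and 12.38 in GHRH-KO livers and 12.96, 13.63 and 9.60 in control livers. Lcn2, which encodes lipocalin 2, was 12.91, 9.92 and 10.38 in GHRH-KO livers and 9.39, 10.66 and 7.08 in control livers. For both genes the range within each genotype was wider than the gap between the means of the genotypes. The SD of Lcn2 (1.61 in GHRH-KO and 1.81 in control livers) was below its difference of 2.02. Of the 17 genes tested, Saa3 was the one whose groups did not overlap, at 11.09, 9.09 and 9.65 in GHRH-KO livers and 8.21, 7.73 and 7.74 in control livers, with a difference of 2.05 and an adjusted p of 0.0907 in limma. The listed gene below the intensity filter was Timp1, an inhibitor of matrix metalloproteinases, at 4.79, 5.01 and 4.96 in GHRH-KO livers and 3.55, 4.07 and 4.01 in control livers. Its groups did not overlap either, the control values were under the highest Ghrh value, and it was called in the fit with no filter (difference 1.05, adjusted p = 0.0336). Macrophage markers moved partly with these arrays. Of 10 Kupffer cell or macrophage markers 9 were tested and none was called, and their mean log2 level was 8.57, 7.26 and 7.83 in GHRH-KO livers and 8.53, 7.32 and 7.18 in control livers. Their summed linear level was 2580 to 6603 in GHRH-KO livers and 2231 to 5414 in control livers, and their part in the spread of Stat3 and Socs3 was not tested.

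The other feedback genes read nearer to background. Cish, which encodes CIS, an inhibitor that competes with STAT5 for the receptor and a known STAT5 target, was 5.48, 5.85 and 5.65 in GHRH-KO livers and 5.78, 5.30 and 5.95 in control livers on its single probe set (1448724_at). These values interleaved, and the difference was -0.017 (95% interval -0.47 to 0.44, adjusted p = 0.973 in limma). Cish is the feedback gene whose window above holds 2 copies of the element. Socs2, a negative regulator of GH action whose loss gives oversized mice, was 5.41, 6.72 and 5.94 in GHRH-KO livers and 6.81, 6.13 and 6.31 in control livers (1449109_at). GHRH-KO replicate 5 was within the control range and the other GHRH-KO livers were below it, and the difference was -0.39 (-1.19 to 0.40, adjusted p = 0.563). It was -0.088 without GHRH-KO replicate 4, -0.20 without control replicate 1 and -0.74 without GHRH-KO replicate 5, so that its size rested on single arrays. On 1418507_s_at, which lay below the filter, Socs2 read 4.16, 5.83 and 4.74 in GHRH-KO livers and 4.18, 4.42 and 4.24 in control livers, again with GHRH-KO replicate 5 the highest of its genotype. The groups overlapped there, and the difference was 0.63, in the other direction (adjusted p = 0.498 in limma). The other 4 Socs2 probe sets were at background in both genotypes. Socs1, the inhibitor best known from interferon signalling, was 4.45, 4.63 and 4.69 in GHRH-KO livers and 4.32, 4.63 and 4.45 in control livers. Both means were under the highest Ghrh value, so no fold is given.

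Bcl6 encodes a zinc finger repressor that is more abundant in male than in female mouse liver. On 1421818_at it was 9.53, 8.49 and 8.71 in GHRH-KO livers and 10.21, 10.43 and 10.23 in control livers. Every GHRH-KO value was below every control value, and GHRH-KO replicate 4 was the nearest to the controls. Bcl6 averaged 8.91 ± 0.55 in GHRH-KO livers and 10.29 ± 0.12 in control livers (SD, n = 3 each), a difference of -1.38 (standard error 0.26), or 2.60 times lower with a 95% interval of 1.69 to 3.99. With an unadjusted p of 0.0011 and an adjusted p of 0.0603 in limma, it missed the threshold. The probe set 1450381_a_at gave 6.55, 4.74 and 5.70 in GHRH-KO livers and 6.96, 7.15 and 7.06 in control livers, a difference of -1.39 (-2.34 to -0.44, adjusted p = 0.151). Both probe sets thus had the same order of GHRH-KO livers and no overlap with the controls. The spread was unequal, with the SD at percentile 95.6 of all genes tested within GHRH-KO livers and 34.7 within control livers. Bcl6 was called without GHRH-KO replicate 4 (-1.69, adjusted p = 0.00874), and also with median-centred arrays, array weights or a trend and robust variance model, and its adjusted p ran from 0.00874 to 0.197 over 15 alternatives.

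Cux2 encodes a homeobox repressor known as a female-biased gene of mouse liver. On 1447821_at it was 7.45, 7.18 and 7.19 in GHRH-KO livers and 7.36, 7.28 and 7.52 in control livers. The groups overlapped, and the difference was -0.11 (-0.42 to 0.20, adjusted p = 0.681 in limma). The other probe sets of Cux2, 1450181_at and 1447500_at, were at background in both genotypes.

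**Figure D3:**
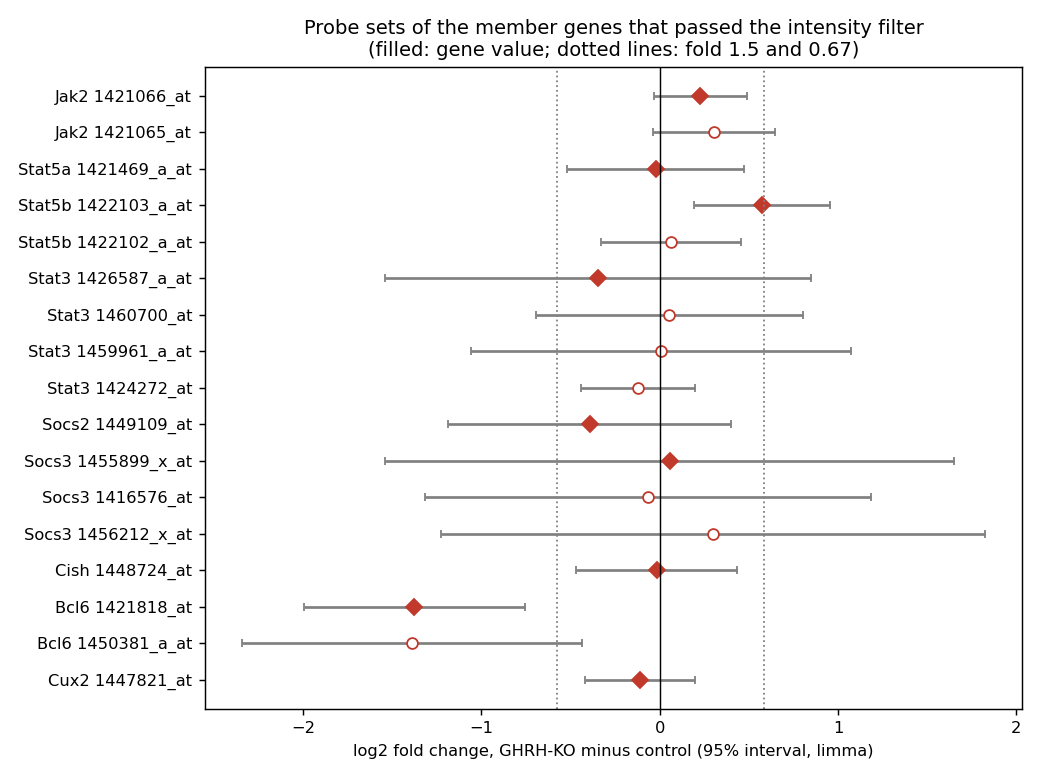
Difference of each member probe set that passed the intensity filter (log2, GHRH-KO minus control, x axis) with its 95% interval from limma, diamonds for the gene value and circles for other probe sets. Both Bcl6 probe sets and the gene value of Stat5b have intervals that leave out 0, and the intervals of Stat3 and Socs3 gene values span more than those of the other gene values.

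By the distance between values taken relative to the control mean, averaged over the 6 arrays, the genes most like Bcl6 were Syvn1, Alas2 and Paqr9, with mean absolute log2 distances of 0.160, 0.180 and 0.193. Syvn1, an E3 ubiquitin ligase of the endoplasmic reticulum, fell by 1.41 on the log2 scale (adjusted p = 0.00813 in limma). Alas2, the erythroid form of the first enzyme of haem synthesis and the single erythroid marker tested of 7 listed, fell by 1.36 (adjusted p = 0.0219). Paqr9, a membrane receptor family gene, fell by 1.60 (adjusted p = 0.0273). All 3 were called lower, whereas Bcl6 was not. That their differences were of like size to that of Bcl6 follows from how they were picked. Alas2 on the linear scale was 643 to 928 in GHRH-KO livers and 1679 to 2377 in control livers. The erythroid markers Hba-a1, Slc4a1 and Epb42 were below the intensity filter and at background in both genotypes. Their differences were -0.053, 0.14 and -0.051, and their groups overlapped. The part of erythroid cells in the Bcl6 values was not tested.

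The lists of pathway genes around the members gave few calls. Of 5 other JAK and STAT genes tested, 8 other SOCS and PIAS genes and 13 phosphatases and adaptors, none was called in either direction, and their median differences were -0.061, -0.069 and 0.080. Jak1 and Tyk2, the kinases of the interleukin-6 and interferon receptors, differed by 0.088 and -0.22. Stat6, the transducer of interleukin-4, differed by -0.061, Socs7 by 0.013 and Pias1, a SUMO ligase, by -0.15. The tyrosine phosphatases that act on JAK or STAT proteins differed by -0.13 for Ptpn1, 0.61 for Ptpn2, 0.28 for Ptpn6 and 0.19 for Ptpn11, and the JAK2-binding adaptor Sh2b1 by -0.44. Ptpn2 had the largest of these, at 9.05, 9.28 and 8.85 in GHRH-KO livers and 8.50, 8.70 and 8.16 in control livers. Its groups did not overlap on this probe set (1438562_a_at), and its adjusted p was 0.154 in limma. The other Ptpn2 probe set tested, 1417140_a_at, was 8.37, 8.52 and 8.01 in GHRH-KO livers and 8.34, 8.45 and 8.10 in control livers, with overlap and a difference of 0.0054 (adjusted p = 0.991).

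Of 13 cytokine receptors that signal through JAK kinases, 1 was called, Ghr, the GH receptor itself. On 1417962_s_at Ghr was 11.60, 11.86 and 11.45 in GHRH-KO livers and 12.72, 12.91 and 12.87 in control livers. The groups stood well apart, and Ghr fell by 1.20 on the log2 scale (adjusted p = 0.0121 in limma). On 1451501_a_at it was 8.46, 8.66 and 8.25 in GHRH-KO livers and 11.66, 11.49 and 11.64 in control livers, and fell by 3.14 (adjusted p = 1.46e-04). On 1451871_a_at it was 6.94, 7.06 and 6.60 in GHRH-KO livers and 7.87, 7.78 and 7.87 in control livers, and fell by 0.98 (adjusted p = 0.0275). All 3 probe sets were thus called lower, with sizes that differed. The call on 1417962_s_at was lost without GHRH-KO replicate 6, control replicate 2 or control replicate 3 (adjusted p = 0.0508, 0.0614 and 0.0604). Lifr, the receptor of leukaemia inhibitory factor, also depended on the probe set. On 1454984_at it was 10.65, 10.57 and 10.52 in GHRH-KO livers and 11.02, 10.92 and 10.85 in control livers (difference -0.35, adjusted p = 0.170 in limma). On 1425107_a_at, in contrast, it was 8.82, 8.78 and 9.19 in GHRH-KO livers and 11.13, 11.38 and 11.01 in control livers (difference -2.24, adjusted p = 0.00147). The remaining Lifr probe set, 1450207_at, differed by -0.70 (adjusted p = 0.0795 in limma). The groups lay apart on each Lifr probe set, and only 1425107_a_at met the rule for a call. The receptors of erythropoietin (Epor, 0.23), interleukin-6 (Il6ra, 0.24, and its signalling chain Il6st, 0.17) and leptin (Lepr, 0.26) were not called.

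Known GH and STAT5 responsive genes of male mouse liver gave most of the calls in these lists. Of 15 listed genes 11 were tested, and 8 were called lower and 0 higher, against 0.97% and 0.786% of all genes. In all 11 every GHRH-KO value lay below every control value, which was true of 15.7% of all genes. The median difference was -4.01, with a range from -8.56 to -0.93. The list was drawn up with results of these data known, so its count is a description. Igf1, the growth factor gene that GH drives in liver, was 6.72, 6.79 and 6.92 in GHRH-KO livers and 12.16, 12.52 and 12.49 in control livers, and fell by 5.58 on the log2 scale (adjusted p = 5.56e-06 in limma). Igfals, which encodes the acid-labile subunit of the circulating IGF1 complex, was 5.17, 6.33 and 6.40 in GHRH-KO livers and 9.69, 10.35 and 9.88 in control livers, and fell by 4.01 (adjusted p = 0.00341). For both genes the gap between genotypes was larger than the spread within them. The male-biased genes Elovl3 (a fatty acid elongase), Slco1a1 (an organic anion transporter), Cyp7b1 (an oxysterol hydroxylase) and Keg1 fell, with differences of -4.81, -6.69, -3.70 and -4.06. Mup3, a major urinary protein gene whose probe set may bind other genes of its family, fell by 1.52. The call of Mup3 was lost without GHRH-KO replicate 5 or any 1 control replicate and that of Cyp7b1 without control replicate 2, and the count of 8 was 6 to 8 when each replicate was left out, the lowest without control replicate 2. Hsd3b5, a steroid dehydrogenase gene of male liver, was 3.27, 3.32 and 3.67 in GHRH-KO livers and 11.76, 12.07 and 12.12 in control livers. Its GHRH-KO values were under the highest Ghrh value, so that the difference of -8.56 rests on a level at background. The genes that missed the threshold were Cyp2d9, Cyp4a12a and Onecut1, with differences of -0.93, -1.40 and -1.48.

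**Figure D4:**
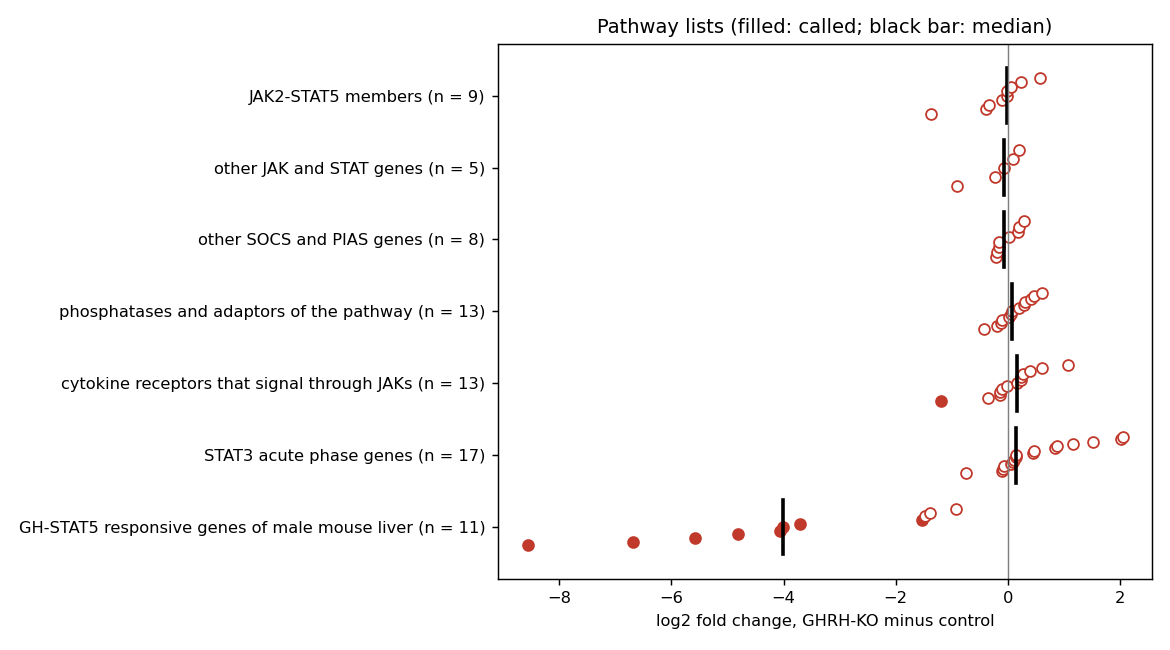
Difference of each gene tested (log2, GHRH-KO minus control, x axis) in the member genes and the pathway lists, with filled circles for called genes and a black bar for the median of the list. The GH and STAT5 responsive genes have a median of -4.01 with 8 filled circles, Ghr is the only other filled circle, and the medians of the other lists lie between -0.069 and 0.17.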

How the data were processed

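Liver RNA of 3 GHRH-KO and 3 control males was hybridized to Affymetrix Mouse Genome arrays. The authors summarised the arrays by RMA, which corrects background, makes the arrays' distributions alike by quantile normalization and combines probes into probe sets, and deposited log2 values (the version of RMA is not given in the sources used here). Because of quantile normalization, differences are relative to the whole array. The detection filter in the methods needs probe-level data and was not repeated here. In its place, the 64 control probe sets were dropped and as many of the brightest probe sets were tested as the methods state for their filter (55.8% of the rest, each with a mean over the 6 arrays of at least 4.64). The difference between genotypes was tested by lmFit and eBayes of limma 3.58.1 (R 4.3.3, two-sided). Probe sets below the filter took their adjusted p from a fit with no filter. The probe annotation gave 34958 probe sets 1 gene, 932 several and 9211 none, and only those with 1 gene were named. The text names the 10 members, 20 pathway genes, any other list gene called and the 3 genes nearest to the member with the largest difference, since none was called. Of the 20 pathway genes, 2 were not analysed here. The member genes, lists and alternatives were chosen with earlier results of these data known. Markers were listed for hepatocytes, Kupffer cells, lymphocytes, neutrophils, endothelial cells, stellate cells, cholangiocytes and erythroid cells. The number of arrays limits the precision. Plots used matplotlib 3.10.9 and Python 3.11.15.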

Additional observations from a re-analysis of the deposited data

How the results depend on the processing

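Over 15 alternatives Jak2, Stat5b, Socs2, Bcl6 and Cux2 kept their direction in each one that gave them a value, Socs2 between -0.89 and -0.088. The members called were 0, but 1, Bcl6, with median-centred arrays (-1.33, adjusted p = 0.0463 in limma), array weights (-1.40, 0.0215) and a trend and robust variance model (-1.38, 0.0481), and 0 to 1 leaving out each replicate. Genes called, 98 higher and 121 lower, were 248 and 288 with array weights. They were 42 and 64 with the widest array pair left out (GHRH-KO replicate 5 and control replicate 2). Leaving out each replicate they were 36 to 93 and 46 to 95. Probe sets called, 158 higher and 214 lower, were 437 and 504 with array weights. They were 62 and 111 with the widest array pair left out, and 50 to 136 and 84 to 167 leaving out each replicate. Cytokine receptors called lower were 2 by the probe set with the lowest p (Ghr and Lifr) and 0 to 1 leaving out each replicate. Acute phase genes called higher were 1 with no intensity filter (Timp1), 1 by the probe set with the lowest p and 1 with array weights.

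Small differences changed sign. Stat5a was 0.024 after a second quantile normalization, 0.021 with median-centred arrays, 0.17 with array weights and 0.29 with the widest array pair left out. With those arrays left out Stat3 was 0.37, Ptpn1 0.11, Ptpn11 -0.020 and Socs7 -0.031. With array weights Socs3 was -0.081, Stat6 0.048 and Socs7 -0.14. Socs3 was -0.065 without probe sets of the _x_at and _s_at classes, Cish 0.027 with median-centred arrays and Il6st -0.45 by the lowest p. Leaving out each replicate, the ranges were -0.15 to 0.19 for Stat5a, -0.85 to 0.11 for Stat3, -0.68 to 0.47 for Socs3, -0.20 to 0.12 for Cish, -0.048 to 0.51 for Il6ra, -0.15 to 0.032 for Stat6 and -0.10 to 0.16 for Socs7. The call of Cyp7b1 was lost without control replicate 2 (adjusted p = 0.0512 in limma). That of Mup3 was lost without GHRH-KO replicate 5 or any control replicate, and with the widest array pair left out (0.0587 to 0.139). The cause was not tested. No paired analysis was made, because the sample labels do not give the litter of each animal.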

Other observations

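Of the markers of 5 further cell types none was called by limma. Of 12 lymphocyte markers 3 were tested, with a median difference of 0.066, and their summed linear level was 201 to 225 in GHRH-KO livers and 193 to 229 in control livers. Of 8 neutrophil markers 3 were tested, with a median difference of 0.72 and a summed level of 102 to 174 in GHRH-KO livers and 93.7 to 99.5 in control livers. The medians were 0.19 for 7 endothelial cell markers, 0.32 for 8 stellate cell or fibroblast markers and -0.57 for 4 cholangiocyte markers. The mean log2 level of the cholangiocyte markers was 5.13, 5.19 and 5.30 in GHRH-KO livers and 6.21, 5.36 and 5.24 in control livers. Control replicate 1 thus stood above the other arrays. In each of these 5 lists the unadjusted p was under 0.05 for at most 2 of the genes tested. Among lymphocyte markers below the intensity filter, unadjusted p in limma was 0.0046 for Ms4a1, 0.0147 for Gzma and 0.0365 for Nkg7. These were higher in GHRH-KO livers, but their means in both genotypes were under the highest Ghrh value and none was called. For Cd3g, Cd8a, Cd2, Cd79a and Cd79b, also below the filter, it was 0.556 or more.

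Osmr, the oncostatin M receptor, had the highest difference of the cytokine receptors and was chosen after its values were seen. It read 6.85, 7.11 and 6.34 in GHRH-KO livers and 6.20, 5.69 and 5.20 in control livers, a difference of 1.07 with an adjusted p of 0.133 in limma. The groups did not overlap. Stat2, which carries interferon signals and was chosen in the same way, read 6.65, 5.31 and 6.40 in GHRH-KO livers and 7.41, 7.03 and 6.65 in control livers, a difference of -0.91 with an adjusted p of 0.256. The lowest control value was close to the highest GHRH-KO value.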
